A study of Homo sapiens with 9 samples.

Results

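The SLC25 family is the largest group of transport proteins of the inner mitochondrial membrane. Its members are encoded in the nucleus, are built from tandem repeats of a shared fold, and exchange nucleotides, phosphate, carboxylates, amino acids, cofactors and metal ions between the cytosol and the matrix. In growing tumour cells they link glycolysis, the citric acid cycle and ATP supply to the rest of the cell. The genes described here are the rows of an amplicon RNA sequencing table whose gene symbol starts with SLC25A: 50 of 20812 rows, of which 48 are carrier genes and 2 are pseudogenes (SLC25A3P1 and SLC25A51P1). Of the 50, 34 had a mean of at least 1 RPM (reads of a gene scaled to the same library total) over all 9 libraries and were tested, among 11158 genes of the whole table that met that limit.

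The libraries came from SKBR3, an established human breast cancer line with amplified ERBB2, after 48 h with 10 nM siRNA. PVRL4 siRNA 2 was given to 3 libraries, PVRL4 siRNA 1 to 3 and a non-targeting control siRNA to 3. All groups received the same lipid transfection reagent. Control and PVRL4 siRNAs came from different suppliers, and nothing in the labels names separate cultures behind the replicates. The p-values below therefore speak of the scatter among these libraries, part of which may be technical. The series addresses PVRL4, the gene of the adhesion molecule nectin-4, and each gene is read at 1 amplicon only. PVRL4 itself was at 3.39, 2.91 and 2.58 RPM with siRNA 2, at 5.99, 4.36 and 4.67 RPM with siRNA 1 and at 9.93, 7.86 and 11.6 RPM in control, with no overlap between any of the groups.

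Libraries held 10017130 to 10707777 reads. The summed level of 7 luminal epithelial markers, ERBB2 and keratin genes among them, was 8334 to 8861 RPM with siRNA 2, 9701 to 10140 RPM with siRNA 1 and 9868 to 10636 RPM in control. KRT19 made up the largest part, averaging 4977 RPM with siRNA 2 and 5878 RPM in control. Lower averages with siRNA 2 than in control were also seen for KRT8 (1525 against 1987 RPM), KRT18 (934 against 1049 RPM), ERBB2 (665 against 804 RPM) and GATA3 (22.7 against 32.6 RPM). Of these, KRT8 did not overlap control and the others did. EPCAM was not lower with siRNA 2, averaging 499 RPM against 477 RPM in control. Markers of other cell types stayed low in every library: 5 leukocyte markers summed to at most 1.16 RPM, 3 adipocyte markers to at most 0.775 RPM, 5 fibroblast markers to 3.53 to 6.54 RPM and 4 endothelial markers to 4.39 to 10.3 RPM.

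The results turn on SLC25A24 and SLC25A23, a pair of carriers that swap ATP-Mg for phosphate and carry calcium-binding EF-hands on their cytosolic side. Their coding sequences in GENCODE v29 are 1431 and 1404 bases long and aligned at 59.8% identity over all alignment columns. SLC25A24 and SLC25A5, a carrier of another branch of the family with 894 coding bases, aligned at 37.6%. That is 591 identical bases in 1570 columns, beside 920 in 1538 for SLC25A24 and SLC25A23. Gap columns count as not identical, so the shorter SLC25A5 lowers its percentage, and these percentages do not measure kinship. The longest run of identical bases shared by the SLC25A24 and SLC25A23 coding sequences was 14 bases. The stretch of 60 bases in which these genes are most alike is shown to let the divergence between the paralogs be seen, with the aligned stretch of SLC25A25, the third ATP-Mg carrier expressed here. Capitals mark bases that differ from SLC25A24, 13 in SLC25A23 and 14 in SLC25A25, and positions run from the first coding base (1154 to 1213, 1127 to 1186 and 1130 to 1189).
SLC25A24: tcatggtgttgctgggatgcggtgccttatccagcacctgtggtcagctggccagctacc
SLC25A23: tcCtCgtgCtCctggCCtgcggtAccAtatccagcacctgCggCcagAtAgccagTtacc
SLC25A25: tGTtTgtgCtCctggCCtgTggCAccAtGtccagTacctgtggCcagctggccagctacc

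The start regions of SLC25A24 and SLC25A23, 250 bases before to 50 after the RefSeq gene start in GRCh38.p14, are shown because these genes were low together. SLC25A24 lies at chr1:108192786-108193085 and SLC25A23 at chr19:6459743-6460042, both on the minus strand. Capitals mark GC boxes (GGGCGG) and CCAAT boxes (CCAAT), searched on both strands. SLC25A23 held 2 GC boxes and 1 CCAAT box, and SLC25A24 held 0 of either. Over all 35116 RefSeq start regions, 44.95% held a GC box and 34.6% a CCAAT box, and of the 28 tested SLC25A genes with an entry 20 held a GC box and 15 a CCAAT box. A match describes the letters of this window and is not evidence of a bound factor.
SLC25A24: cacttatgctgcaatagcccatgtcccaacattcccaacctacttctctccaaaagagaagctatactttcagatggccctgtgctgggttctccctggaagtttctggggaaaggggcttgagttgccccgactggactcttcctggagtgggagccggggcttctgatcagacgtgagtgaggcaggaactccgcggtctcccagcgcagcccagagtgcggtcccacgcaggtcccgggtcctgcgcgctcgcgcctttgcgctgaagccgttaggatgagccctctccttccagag
SLC25A23: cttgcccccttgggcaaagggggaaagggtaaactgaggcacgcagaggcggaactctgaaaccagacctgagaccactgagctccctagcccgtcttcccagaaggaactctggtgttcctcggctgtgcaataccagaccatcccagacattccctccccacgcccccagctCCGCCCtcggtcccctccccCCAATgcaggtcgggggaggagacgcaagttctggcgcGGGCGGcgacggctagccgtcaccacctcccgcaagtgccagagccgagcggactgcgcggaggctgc

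The SLC25A transcripts of these cells were dominated by the genes of ATP exchange and phosphate import. Summed over the SLC25A rows, levels were 3879, 3537 and 4018 RPM with siRNA 2, 3667, 3576 and 3575 RPM with siRNA 1, and 3743, 3642 and 3587 RPM in control. The groups overlapped in these sums. SLC25A5 alone, which encodes the ADP/ATP translocase ANT2, made up 35.8% of the reads of these rows. SLC25A3, the phosphate carrier that feeds ATP synthase, made up 9.76% and SLC25A6, the translocase ANT3, 9.36%. With SLC25A5 these 3 genes held 55.0% of the reads of the SLC25A rows. Family members filed under other symbols are outside these sums and shares. Among them UCP2 averaged 537 RPM with siRNA 2, 607 RPM with siRNA 1 and 641 RPM in control, above SLC25A3 and SLC25A6 in each group. Reads of different amplicons also differ in how well each amplicon is copied, so the order of levels between genes is a description of this assay.

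By mean over the 9 libraries the next genes were SLC25A11, the oxoglutarate carrier of the malate-aspartate shuttle (247 RPM), and SLC25A1, the citrate exporter that supplies acetyl units for lipid synthesis (142 RPM). They were followed by SLC25A32, a folate and FAD carrier (109 RPM), SLC25A10, the dicarboxylate carrier (96.6 RPM), SLC25A24 (94.6 RPM), SLC25A13, the aspartate/glutamate carrier citrin (94.3 RPM), and SLC25A36, a pyrimidine nucleotide carrier (86.7 RPM). In all, 6 genes had a mean of at least 100 RPM, 22 lay between 10 and 100 RPM and 6 between 1 and 10 RPM. Pairs of paralogs differed in level to varying degrees, each gene read at its own amplicon. SLC25A24 and SLC25A23 stood at 94.6 and 59.4 RPM over the 9 libraries, which include the siRNA 2 libraries where both were lower. In control they stood at 116 and 71.8 RPM. Over the 9 libraries citrin stood at 94.3 RPM and its paralog SLC25A12 (aralar) at 14.9 RPM. The glutathione carrier SLC25A39 stood at 83.8 RPM and SLC25A40 at 17.8 RPM, and the mitoferrins SLC25A37 and SLC25A28, which import iron, stood at 11.0 and 5.26 RPM.

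**Figure D1:**
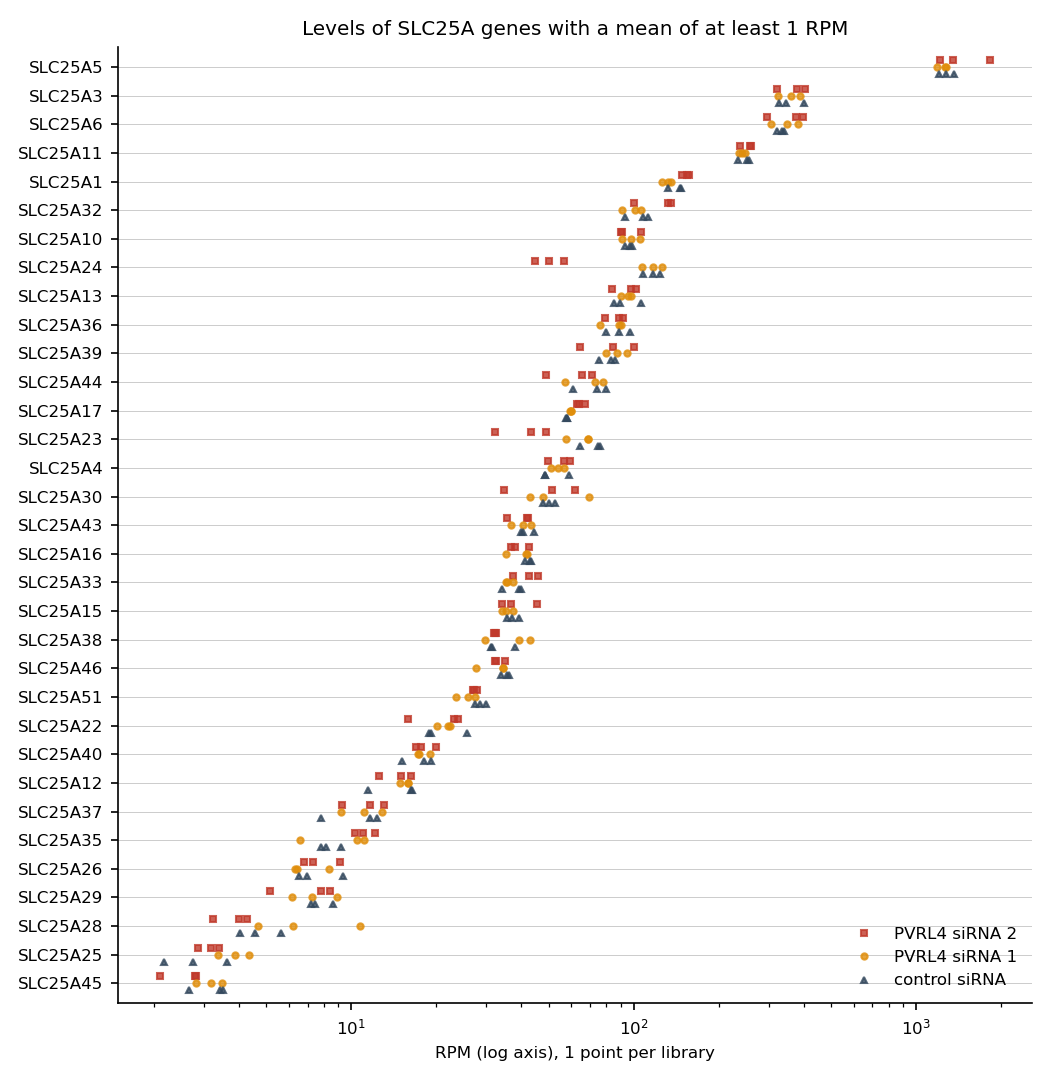
RPM of the tested SLC25A genes, 1 not drawn, on a log axis, 1 point per library, ordered by the mean over the 9 libraries, for PVRL4 siRNA 2 (squares), PVRL4 siRNA 1 (circles) and control siRNA (triangles). SLC25A5 stood above all other members, and the siRNA 2 points of SLC25A24 and SLC25A23 lay to the left of the other groups.

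The remaining 16 rows did not reach 1 RPM. The member just above that limit was SLC25A45 (2.97 RPM) and the member just below it SLC25A14 (0.730 RPM, with a control mean of 0.961 RPM). SLC25A14, also called UCP5, had 3 to 15 reads per library. Of the other rows, 8 had between 1 and 14 reads over all 9 libraries: SLC25A42 (a coenzyme A carrier, 14 reads), SLC25A21 (13), SLC25A27 (9), SLC25A2 (4), SLC25A18 (4), SLC25A52 (2), SLC25A34 (1) and SLC25A53 (1). No read was counted for SLC25A20, SLC25A31, SLC25A41, SLC25A47, SLC25A48 or the 2 pseudogenes, and a floor of 3 reads lies at 0.280 to 0.299 RPM per library. SLC25A31 and SLC25A41 are the translocase and ATP-Mg paralogs known from testis, and SLC25A47 is known as a liver carrier. SLC25A20, the carnitine/acylcarnitine carrier, is needed for fatty acid oxidation in many tissues. Its partner enzymes were present, with CPT1A at 76.03 ± 34.6, 83.97 ± 4.53 and 88.1 ± 9.03 RPM and CPT2 at 27.5 ± 1.14, 28.03 ± 1.65 and 25.7 ± 2.79 RPM with siRNA 2, with siRNA 1 and in control (SD, n = 3 each). Whether the SLC25A20 amplicon can give reads was not tested.

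SLC25A52 is a copy of SLC25A51, the mitochondrial NAD+ carrier. Their coding sequences were identical at 94.5% of alignment columns and shared an unbroken run of 169 bases, so reads of these genes may not be fully separated. SLC25A51 was at 27.4 ± 0.388 RPM with siRNA 2, 25.6 ± 2.01 RPM with siRNA 1 and 28.6 ± 1.25 RPM in control (SD, n = 3 each). The translocase genes SLC25A5 and SLC25A6 were 78.6% identical in coding sequence and shared a run of 29 bases.

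With PVRL4 siRNA 2, SLC25A24 and SLC25A23 fell and no member was called higher. The test was limma on log2(RPM + 1) over all 11158 genes, and a gene was called at a Benjamini-Hochberg adjusted p under 0.05. It called 2 of the 34 tested SLC25A genes against control, both lower, where it called 0.681% of all genes tested (0.645% lower and 0.0358% higher). At so small a share of higher calls, the lack of one among 34 genes does not show that none rose. With the replicate number as a block the members' count was again 2, where 3.41% of all genes were called. The median log2 change of the 34 genes was 0.0026, with 17 above and 17 below 0, beside a median of -0.022 over all genes. In these bulk samples a lower level cannot be told apart as fewer cells with the transcript or less of it per cell.

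SLC25A24 was at 50.1, 44.9 and 56.8 RPM with siRNA 2, at 117, 107 and 126 RPM with siRNA 1 and at 124, 117 and 108 RPM in control. Every siRNA 2 library lay below every other library, at 463 reads or more per library. The siRNA 2 mean of 50.6 ± 5.96 RPM was 43.5% of the control mean of 116 ± 7.99 RPM (SD, n = 3 each). The log2 change was -1.19 (SE 0.114, 95% confidence interval -1.43 to -0.95, limma adjusted p = 0.000554). SLC25A24 passed the threshold in all 21 alternative analyses, in which its change ranged from -1.28 to -1.11.

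SLC25A23 was at 43.1, 49.03 and 32.2 RPM with siRNA 2, at 57.4, 68.7 and 69.1 RPM with siRNA 1 and at 64.7, 74.7 and 75.9 RPM in control. The siRNA 2 libraries again lay below all others, with replicate 3 lowest. The siRNA 2 mean of 41.5 ± 8.52 RPM was 57.8% of the control mean of 71.8 ± 6.13 RPM (SD, n = 3 each). Its log2 change was -0.79 (SE 0.146, interval -1.11 to -0.48, limma adjusted p = 0.0263). This call was less firm than that of SLC25A24: leaving out any 1 control library ended it (limma adjusted p = 0.0665 without replicate 1, 0.134 without 2 and 0.111 without 3). Among the siRNA 2 libraries, leaving out replicate 1 (0.0646) or replicate 3 (0.0599) ended it too. Without siRNA 2 replicate 3 the change was -0.63. The call was also lost with no filter on low genes (limma adjusted p = 0.244), with only the 6 libraries compared (0.0514) and without a trended prior (0.0945). It held with the replicate block (0.00159).

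SLC25A25, which belongs to the same calcium-sensing branch, was low and did not pass the test. It was at 3.39, 3.20 and 2.86 RPM with siRNA 2, at 3.86, 4.36 and 3.36 RPM with siRNA 1 and at 3.63, 2.75 and 2.17 RPM in control. The siRNA 2 values lay within the control range, and the log2 change was 0.13 with an interval of -0.30 to 0.55. SLC25A25 had 22 to 45 reads per library, and changes as large as those of SLC25A24 and SLC25A23 lie outside this interval. Summed over the 4 ATP-Mg carrier genes, levels were 96.6, 97.1 and 91.9 RPM with siRNA 2, 178, 180 and 199 RPM with siRNA 1 and 192, 194 and 186 RPM in control. The siRNA 2 sum was 49.9% of control, the lowest of the 11 role groups, whose other values ran from 93.1% to 113%. SLC25A24 and SLC25A23 make up nearly all of this sum, so it restates their values and is not a separate result on the group. The luminal marker sum was also lower in every siRNA 2 library than in every control library, and its part in these results was not tested.

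**Figure D2:**
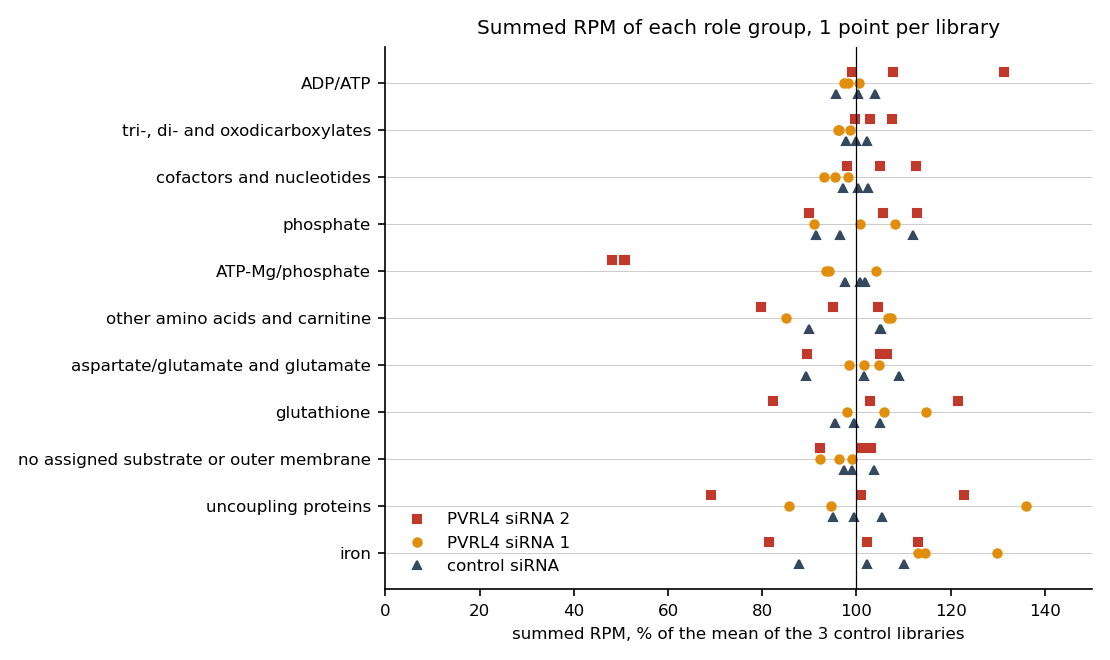
Summed RPM of each role group of SLC25A genes as a percentage of the mean of the 3 control libraries, 1 point per library. The siRNA 2 points of the ATP-Mg/phosphate group, a sum made up almost wholly of SLC25A24 and SLC25A23, averaged 49.9%, and those of the other groups scattered around 100%.

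The other 32 tested members showed log2 changes of -0.24 to 0.37 with siRNA 2, and their 95% intervals lay inside -0.5 to 0.5 for 25 of them and inside -1 to 1 for all 32. Levels did not overlap between siRNA 2 and control for 5 of the 34 genes, 3 higher (SLC25A1, SLC25A17 and SLC25A35) and 2 lower, where such separation was found for 4.99% (higher) and 8.95% (lower) of all genes tested. SLC25A35, a carrier with no settled substrate, was at 11.0, 12.1 and 10.3 RPM with siRNA 2 and at 7.83, 8.15 and 9.17 RPM in control. Its log2 change of 0.37 missed the threshold (limma adjusted p = 0.577), and siRNA 1 libraries spread on both sides of the control range at 6.57, 10.5 and 11.1 RPM.

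Among the ADP/ATP carriers no gene passed. SLC25A5 was at 1346, 1211 and 1832 RPM with siRNA 2, at 1272, 1186 and 1267 RPM with siRNA 1 and at 1359, 1202 and 1274 RPM in control. Replicate 3 of siRNA 2 stood above the other 8 libraries, and the log2 change was 0.17 (limma adjusted p = 0.768) with it and -0.000076 without it. SLC25A6 was at 397, 376 and 295 RPM with siRNA 2 against 322, 341 and 335 RPM in control, and SLC25A4, the translocase ANT1 of heart and muscle, at 49.6, 59.5 and 56.8 RPM against 48.6, 48.3 and 58.7 RPM. The siRNA 2 values of both genes overlapped the control values.

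In the carboxylate, phosphate and amino acid groups all 12 tested genes stayed short of the threshold. SLC25A3 averaged 367 ± 41.9 RPM with siRNA 2 and 357 ± 38.3 RPM in control (SD, n = 3 each), a log2 change of 0.039. The citrate carrier SLC25A1 was at 157, 149 and 154 RPM with siRNA 2 and at 133, 147 and 146 RPM in control (log2 change 0.11, limma adjusted p = 0.786). SLC25A44, a carrier of branched-chain amino acids, was at 71.3, 65.5 and 48.8 RPM with siRNA 2 and at 79.9, 73.8 and 60.8 RPM in control. Its log2 change was -0.21 (adjusted p = 0.766; -0.055 without siRNA 2 replicate 3, -0.32 without siRNA 2 replicate 1 or control replicate 3, and -0.13 without control replicate 1), and replicate 3 was the lowest library in each group.

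Carriers of cofactors, iron and glutathione, and the genes related to uncoupling proteins, did not pass either. SLC25A32 was at 132, 135 and 100.1 RPM with siRNA 2, at 101, 106 and 90.8 RPM with siRNA 1 and at 108, 112 and 93.1 RPM in control. In each replicate number siRNA 2 was highest, and the log2 change against control was 0.22 (limma adjusted p = 0.652, and 0.185 with the replicate block). It was 0.15 without siRNA 2 replicate 2, 0.36 without siRNA 2 replicate 3 and 0.14 without control replicate 3. SLC25A30, a relative of the uncoupling proteins, was at 61.7, 34.6 and 51.5 RPM with siRNA 2 and at 52.7, 50.3 and 47.9 RPM in control, so that siRNA 2 libraries lay on both sides of control (log2 change -0.067).

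**Figure D3:**
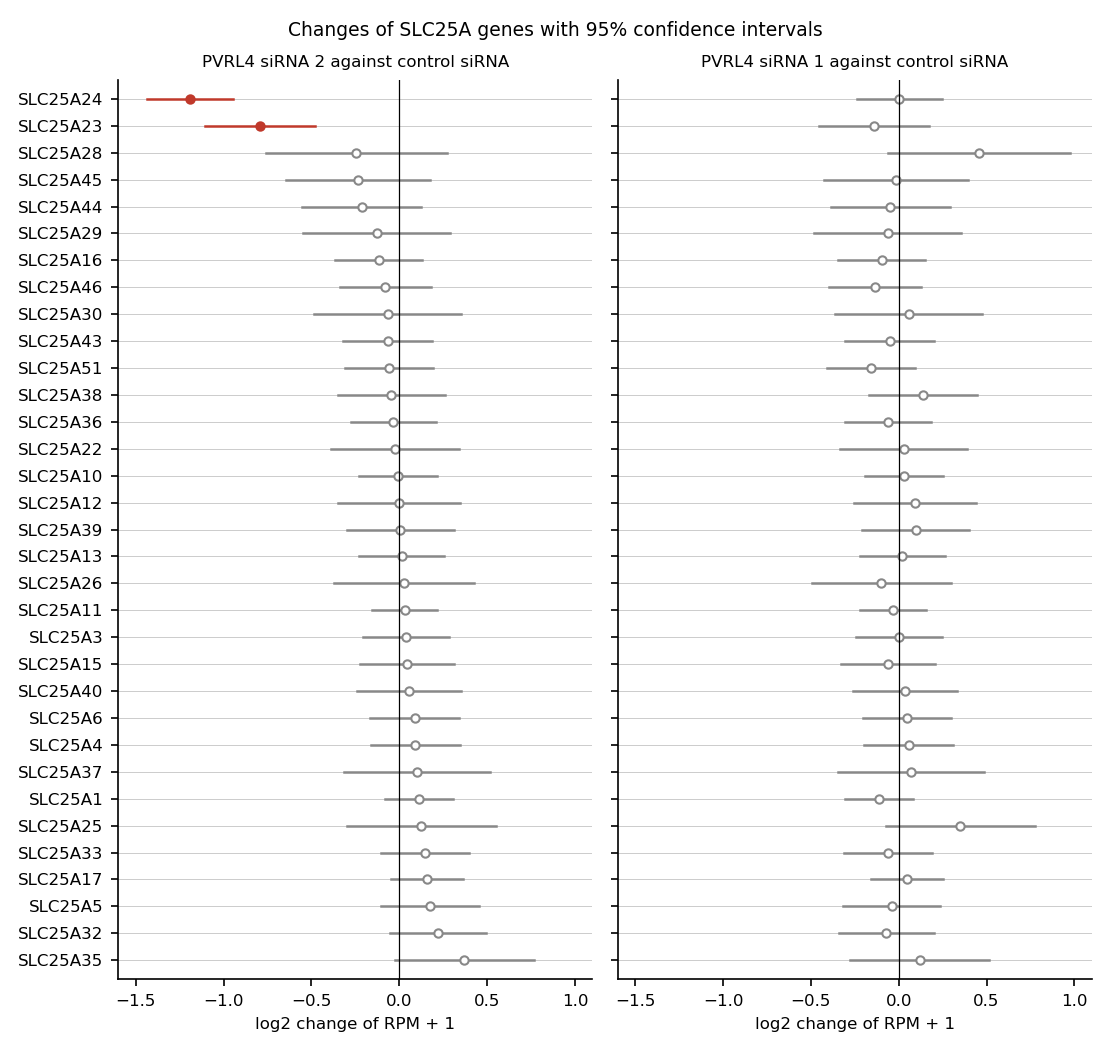
Log2 change of RPM + 1 with its 95% confidence interval for the tested SLC25A genes, 1 not drawn, for siRNA 2 against control (left) and siRNA 1 against control (right), both in the order of the siRNA 2 change. Filled points passed the adjusted threshold of 0.05: SLC25A24 and SLC25A23 on the left and none on the right.

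With PVRL4 siRNA 1 no SLC25A gene was called. This comparison uses the same 3 control libraries as that of siRNA 2, so the results are not independent. limma, edgeR and DESeq2 each called 0 of 34, as did limma with the replicate block, where limma called 0.851% of all genes tested without the block and 1.85% with it. At an unadjusted limma p under 0.05 the count was also 0 of 34, where 6.04% of all genes passed. Log2 changes ran from -0.16 to 0.46, with a median of -0.0060 beside 0.014 over all genes, and the 95% intervals of 31 of the 34 genes lay inside -0.5 to 0.5. SLC25A24 averaged 117 ± 9.79 RPM with siRNA 1 and 116 ± 7.99 RPM in control (log2 change 0.0035, interval -0.24 to 0.25). SLC25A23 averaged 65.1 ± 6.67 RPM and 71.8 ± 6.13 RPM (log2 change -0.14, interval -0.45 to 0.17; SD, n = 3 each), and its change was -0.054 without siRNA 1 replicate 1 and -0.21 without control replicate 1. The 1 gene without overlap was SLC25A17, a peroxisomal carrier of coenzyme A and related cofactors, at 59.8, 59.5 and 60.1 RPM with siRNA 1 and at 57.6, 58.1 and 58.3 RPM in control, a log2 change of 0.044. Such separation was found for 6.40% of all genes upward and 5.59% downward.

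The largest change with siRNA 1 was that of SLC25A28, the ubiquitous mitoferrin, which is known as an interferon-responsive gene. It was at 3.99, 4.26 and 3.24 RPM with siRNA 2, at 10.7, 6.20 and 4.67 RPM with siRNA 1 and at 5.63, 4.55 and 4.04 RPM in control. The siRNA 1 library was the higher in each replicate number, but the groups overlapped, and the log2 change of 0.46 missed the threshold (limma adjusted p = 0.94, and 0.352 with the replicate block). It was 0.16 without siRNA 1 replicate 1. Together with SLC25A37 the iron carriers summed to 15.7, 17.3 and 12.5 RPM with siRNA 2, to 19.9, 17.3 and 17.6 RPM with siRNA 1 and to 13.5, 16.9 and 15.7 RPM in control. These sums were not tested. Those with siRNA 1 and in control came as near as 17.3 and 16.9 RPM, and those with siRNA 1 and siRNA 2 overlapped. Each gene alone overlapped control, and the log2 change of SLC25A37 was 0.069. The summed level of 15 type I interferon genes was 6187, 897 and 2744 RPM in the same siRNA 1 libraries, against 151, 149 and 226 RPM with siRNA 2 and 142 to 147 RPM in control, and its part in the SLC25A28 values was not tested. No match to the core of the interferon-stimulated response element, on either strand, lay in the start region of any of the 28 tested SLC25A genes with an entry, SLC25A28 included, while 3.57% of all start regions held one. At that share 28 regions would hold few matches, and absence from this window is not evidence on control by interferon. SLC25A25 had the next largest change (0.35, interval -0.07 to 0.77, limma adjusted p = 0.97). SLC25A39 was at 79.6, 94.5 and 87.3 RPM with siRNA 1 and at 85.9, 83.2 and 75.2 RPM in control, and SLC25A12 at 15.8, 14.8 and 15.9 RPM against 16.2, 16.4 and 11.4 RPM. The groups overlapped in both genes.

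Set directly against each other, the siRNAs differed in SLC25A24 and SLC25A23. Of the 34 genes 2 were called, both lower with siRNA 2, where 3.05% of all genes tested were called (2.46% lower). SLC25A24 differed by -1.19 on the log2 scale (SE 0.114, limma adjusted p = 0.000178) and SLC25A23 by -0.65 (SE 0.146, adjusted p = 0.0259). The SLC25A23 call did not survive leaving out replicate 2 (limma adjusted p = 0.0869) or 3 (0.0955) of siRNA 1, nor replicate 1 (0.0564) or 3 (0.0754) of siRNA 2. With the replicate number as a block 4 members were called, where 9.33% of all genes were (6.52% lower and 2.81% higher). The additional calls were SLC25A28, lower with siRNA 2 (-0.70, adjusted p = 0.158 without the block and 0.0251 with it; -0.41 without siRNA 1 replicate 1), and SLC25A32, higher with siRNA 2 (0.29, adjusted p = 0.290 without the block and 0.0371 with it). SLC25A1 was at 157, 149 and 154 RPM with siRNA 2 and at 126, 132 and 135 RPM with siRNA 1. It was 1 of 3 members higher without overlap with siRNA 2 (the others were SLC25A17 and SLC25A33), beside 3 lower (SLC25A23, SLC25A24 and SLC25A28), where 7.04% and 12.6% of all genes did so. The difference of SLC25A1, 0.23, missed the threshold without the block (limma adjusted p = 0.240) and with it (0.0933).

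**Figure D4:**
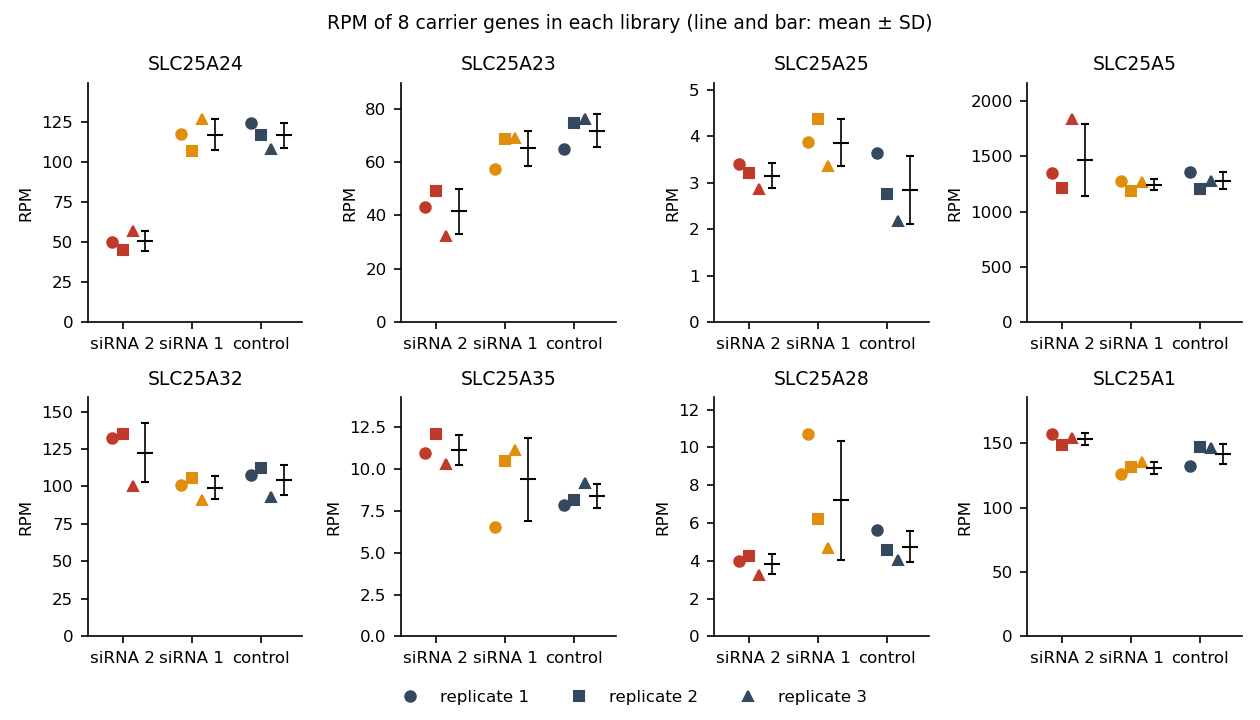
RPM of 8 SLC25A genes in each library, with siRNA 2, siRNA 1 and control from left to right; symbols give the replicate number and the line with its bar gives the mean ± SD of 3 libraries. SLC25A24 and SLC25A23 were low in all siRNA 2 libraries, SLC25A5 was high in siRNA 2 replicate 3, and SLC25A28 was high in siRNA 1 replicate 1.

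Genes that work beside the carriers were also read, from lists of partners in import, calcium uptake and metabolism. The table held 49 such genes and 45 of them were tested. With siRNA 2 limma called 0 of the 45 against control, where it called 0.681% of all genes. At an unadjusted p under 0.05 there were 3 (9.42% of all genes), and with the replicate block 1 was called (3.41% of all genes). With siRNA 1 limma called 0 of 45 (0.851% of all genes), 2 had an unadjusted p under 0.05 (6.04%) and 1 was called with the block (1.85%). In lists of this length such counts are near those shares. Between the siRNAs 1 of 45 was called, where 3.05% of all genes were: SFXN1, a serine transporter of the inner membrane outside the SLC25 family. It was at 237, 222 and 232 RPM with siRNA 2, at 356, 326 and 303 RPM with siRNA 1 and at 347, 317 and 278 RPM in control. Every siRNA 2 library lay below all others. The difference between the siRNAs was -0.51 (limma adjusted p = 0.0153), lost without siRNA 1 replicate 1 (0.0720) or siRNA 2 replicate 2 (0.0537), with no filter (0.125) or without a trend (0.0631). Against control the change with siRNA 2 was -0.44 (0.0775, and 0.00496 with the replicate block).

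No member of the other lists passed without the block, and at the shares called over all genes lists this short would hold few calls. TIMM10, a small chaperone of the TIM22 route that inserts carriers into the inner membrane, was at 156 ± 15.6 RPM with siRNA 2, 138 ± 12.8 RPM with siRNA 1 and 132 ± 11.5 RPM in control (SD, n = 3 each). SLC24A6, the gene of a mitochondrial sodium/calcium exchanger, was at 11.2 ± 0.918, 10.7 ± 1.33 and 9.10 ± 2.06 RPM in the same order of groups. With the replicate block ACLY, which splits exported citrate, was lower with siRNA 1 (536 ± 40.4 RPM) than in control (674 ± 47.6 RPM; limma adjusted p = 0.0324 with the block and 0.415 without it). Of the family members filed under other symbols, UCP2 was at 537 ± 62.9, 607 ± 78.9 and 641 ± 61.1 RPM and MTCH1, an outer membrane relative, at 20.5 ± 2.36, 13.9 ± 0.907 and 16.3 ± 3.54 RPM with siRNA 2, with siRNA 1 and in control. The difference of MTCH1 between the siRNAs passed only with the block (limma adjusted p = 0.0238, and 0.125 without it), as did that of SFXN5 (0.0411 and 0.154) and that of ACLY (0.0120 and 0.159). With SFXN1, the block called 3 of the 45 partner genes higher and 1 lower with siRNA 2 than with siRNA 1. Over all genes it called 9.33% (2.81% higher and 6.52% lower), and in a list of this length the partner count is near that share.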

How the data were processed

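RNA of 9 SKBR3 libraries was measured with an Ion AmpliSeq transcriptome kit from 100 ng of total RNA, per the labels' protocols. The authors deposited 1 table of RPM values, in which every library has the same total, so a change in total RNA per cell would not show. Per the submitters' processing notes reads were placed on hg19; the aligner and counter are not given in the sources used here. Within a tolerance of 0.1 read, 100% of values were whole multiples of 1 read (0.0934 to 0.0998 RPM). Floors cover counting error only, since amplicon reads carry no molecular identifiers. Libraries of a group differed by more than counting noise (chi-square per degree of freedom 8.95 to 23.7).

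Log2(RPM + 1) was fitted with limma 3.58.1 in R 4.3.3 (trended prior, 3 groups in 1 fit) for genes averaging at least 1 RPM, two-sided, with Benjamini-Hochberg adjustment over all genes and a threshold of 0.05. This scale understates changes of genes near 1 RPM. The limma fit was tested on simulated data. On the recovered reads edgeR 4.0.16 called 58, 108 and 344 genes for siRNA 2 against control, siRNA 1 against control and siRNA 2 against siRNA 1, and DESeq2 1.42.0 called 159, 161 and 523. Other alternatives were pseudocounts of 0.1 and 5, dropping the filter or raising it to 5 RPM, TMM, median-of-ratios and quantile scaling, a replicate block, the 6 libraries compared, no trend, and leaving out each library.

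The replicate numbers, taken from the sample titles, pair the samples: each library's deviation from its group mean had a correlation of 0.252 to 0.417 with those of the same number (9 pairs). In the other 18 pairs between groups it was -0.340 to -0.0275. Deviations within a group sum to 0, so positive values in the same-number pairs bring negative ones in the others. The other pairs are therefore no separate evidence of pairing.

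Members, role groups, partner lists and tests were chosen with earlier results of these data known. Named members are those past the threshold, the 10 with the highest mean, the member of each role group with the smallest adjusted p against control, and those without overlap and with an absolute log2 change of at least 0.3. SLC25A17, SLC25A33 and values of further members were chosen after they were seen. RefSeq start regions matched 28 of the 34 tested genes by Entrez ID. Coding sequences are GENCODE v29 principal transcripts, aligned globally with Biopython. Values of 1 member and 1 partner gene are not reported here, though both stay in the fits, sums and counts.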

Additional observations from a re-analysis of the deposited data

Results flagged for a closer look

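The effect of the siRNAs on SLC25A24 differed between them: the difference of siRNA 2 from siRNA 1 was -1.19 on the log2 scale (limma adjusted p = 0.000178), with all 3 siRNA 2 libraries below all 3 siRNA 1 libraries. The same held for SLC25A23, with a difference of -0.65 (limma adjusted p = 0.0259) and no overlap in 3 against 3 libraries. The differences are taken between the siRNA groups alone, while their p-values come from a fit in which the control libraries share the estimate of spread. With only the 6 libraries compared SLC25A24 was called and SLC25A23 was not (limma adjusted p = 0.0601).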

How the results depend on the processing

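With siRNA 2 against control the number of SLC25A genes called was 2, and it was 1 with no filter, 1 with the 6 libraries compared, 1 without a trend, and 1 to 2 with each library left out. Between the siRNAs it was 2, with 4 under the replicate block, 1 with no filter, 1 with the 6 libraries compared, 1 without a trend, and 1 to 2 with each library left out. SLC25A24 was called in every one of these analyses. With siRNA 1 it was 0 in all 21. The replicate block changed no other call of a member. The summed level of the carboxylate group with siRNA 1 was 471 RPM and 464 RPM under median-of-ratios scaling. Scalings moved the median of all genes by at most 0.064 (log2).

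Changes near 0 turned sign. With siRNA 1 that of SLC25A24 was -0.012 under TMM, -0.013 under median-of-ratios scaling, -0.0050 by edgeR, -0.0092 by DESeq2 and -0.054 to 0.066 with a library left out. SLC25A12 ranged from -0.069 to 0.17 with a library left out. With siRNA 2 the ranges were -0.032 to 0.13 for SLC25A3, -0.0064 to 0.27 for SLC25A25, -0.25 to 0.16 for SLC25A30 and -0.000076 to 0.30 for SLC25A5. The causes were not tested. With 3 libraries a group, members under 10 RPM had intervals too wide to show small changes.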

Other observations

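Members were counted by the replicate number of their extreme library. In 8 of the 34 tested genes replicate 3 was the lowest library of all 3 groups, beside 14.2% of all genes tested. SLC25A15, SLC25A25, SLC25A28, SLC25A29, SLC25A32, SLC25A43 and SLC25A44 were among them. In 5 members replicate 1 was the highest library of all 3 groups, beside 11.2% of all genes, among them SLC25A30, SLC25A33, SLC25A44 and SLC25A46. Replicate 1 was lowest in all 3 groups for 0 members (9.21% of all genes) and replicate 2 for 1 (4.70%). Replicate 2 was highest in all 3 groups for 2 members (9.24%) and replicate 3 for 1 (6.21%). The labels do not say what the numbers stand for.

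Relative to its mean, SLC25A17 varied least of the 34 tested members with siRNA 1 (SD 0.577% of the mean) and in control (0.630%), at 591 to 706 reads per library. With siRNA 2 its SD was 3.56% of the mean, and SLC25A38, a glycine carrier of haem synthesis, varied least (0.922%, at 318 to 445 reads per library). Counting error alone exceeds each of these SDs at such read numbers, so they do not mark steady genes. SLC25A28 varied most with siRNA 1 (43.7%).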
